A study of Mus musculus with 76 samples.

Results

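Induced CD8 single positive (SP) thymocytes were compared with natural CD8 SP thymocytes of the mouse across all genes. The comparison held the 4 libraries labelled as induced CD8 SP and the 3 labelled as natural CD8 SP, 7 of the 76 RNA libraries of the series, and its members were chosen by those labels alone. The expression table listed 37980 genes in FPKM, which counts fragments per length of transcript and per depth of the library, and 17416 of them were tested, those that reached 1 FPKM in 2 or more libraries of the series. The induced cells descended from pro/pre-B cells of the bone marrow that received a Hoxb5 virus in culture, were sorted, and were placed into sublethally irradiated mice, from whose thymus they were sorted again. Hoxb5 encodes a homeobox transcription factor found in blood stem cells. Both groups carried the labels C57BL/6 and thymus, polyA RNA was taken from 1000 cells of each type, and the natural cells have the same protocol text, with no separate treatment named. Age, sex, the sorting gates, the virus's promoter and the mark that set donor cells apart from those of the irradiated host are not given in the sources used here. No label says that libraries of a group came from separate animals or transductions. The p-values therefore measure only the spread between libraries of a group, which may be technical. That spread was estimated for each gene over all groups of the series.

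In the thymus, T cell precursors pass from double negative (DN) stages, with neither CD4 nor CD8, to the double positive (DP) stage and then to CD4 SP or CD8 SP cells. Maturing SP cells stop recombining their receptor genes, turn on the transcription factor Klf2 and its target S1pr1, gain Ccr7 and Il7r, and leave for the blood. In the mouse, CD8 also appears briefly without CD4 between DN4 and DP, so a gate of that kind can hold immature as well as mature cells.

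Hoxb5 (ENSMUSG00000038700) was listed at 0 FPKM in all 3 natural libraries and at 0.595, 0.452, 0.388 and 0.665 FPKM in the 4 induced libraries, so the groups did not overlap (adjusted p 0.0111 by limma). A single fragment on a 1 kb transcript was worth 0.193 to 0.231 FPKM in induced and 0.0892 to 0.277 in natural libraries. The Hoxb5 values therefore rest on few fragments and cannot by themselves show that the labels held. Of the 12 Hox genes tested, Hoxb5 was the only one that passed, where 10.6% of all genes tested did.

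The natural libraries differed in depth and stood apart from the induced ones in several library-wide measures. A single fragment on a 1 kb transcript was worth 0.193 to 0.231 FPKM in the induced libraries and 0.0892, 0.257 and 0.277 FPKM in the natural ones, of which replicate 1 was thus the deepest, so values near these rest on very few fragments. From 10352 to 10791 genes reached 1 FPKM in the natural libraries and from 10389 to 10441 in the induced ones. Processed pseudogenes, which are reinserted gene copies, took 0.132% to 0.151% of all FPKM in natural CD8 SP and 1.04% to 1.32% in induced CD8 SP. The natural DN1 libraries had 0.118% to 0.151%, and the 69 libraries of other groups 0.317% to 1.52%. The predicted small RNA gene Gm23419 ran the same way, at 1947 to 2071 FPKM in natural CD8 SP, 3208 to 3555 in natural DN1 and effectively 0 elsewhere. Mitochondrial transcripts took 13.9% to 17.9% of FPKM in natural and 9.41% to 12.4% in induced libraries. The groups also differed in sex-linked genes: Xist was at 0.0145 to 0.187 FPKM in natural and 5.95 to 8.42 in induced libraries, while the Y-linked Ddx3y was at 11 to 15.2 and at 0. Source, sex and any difference in library handling therefore cannot be told apart in this comparison, and their part in the results below was not tested.

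**Figure D1:**
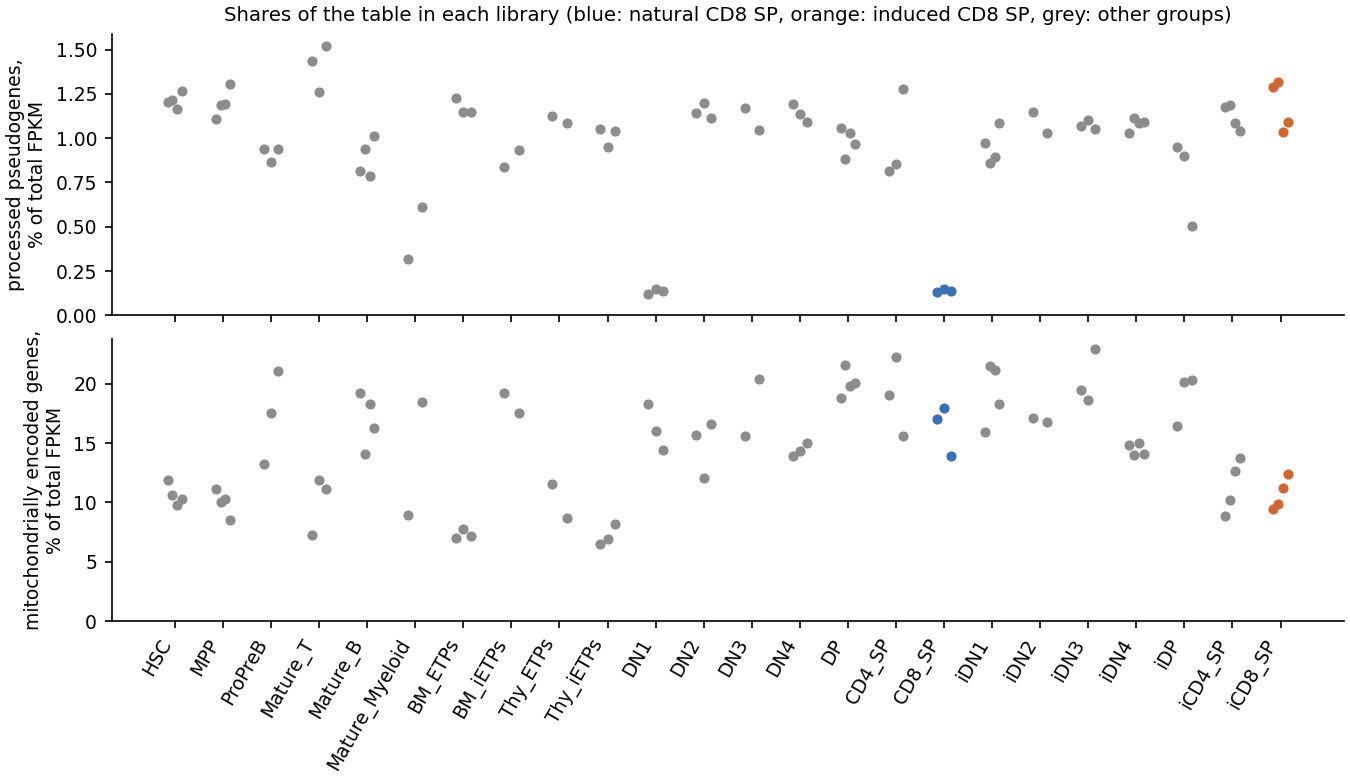
Share of all FPKM taken by processed pseudogenes and by mitochondrially encoded genes in percent, each point 1 library, with natural CD8 SP in blue, induced CD8 SP in orange and other groups in grey. Natural CD8 SP libraries lie with natural DN1 and below all other libraries in the share of FPKM from processed pseudogenes (0.132% to 0.151%), while induced CD8 SP libraries lie among the other groups (1.04% to 1.32%).

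Of the 17416 genes, 1852 passed an adjusted p of 0.05 in limma's moderated test on log2(FPKM + 1) (10.6%). There were 980 genes higher in induced cells (5.63%) and 872 lower (5.01%), and the median log2 fold change of all genes was 0.00. These 2 shares are the background for the counts of each gene list below. With quantile normalization the split was 692 higher and 1019 lower. Without 1 library, 613 to 828 genes were higher and 692 to 759 lower, the lowest of both without natural replicate 2, and with library weights 1590 were higher and 1293 lower. Processed pseudogenes made up 201 of the higher and 18 of the lower calls, out of 1185 tested, and protein-coding genes 720 and 738 out of 13451. When protein-coding genes other than ribosomal ones were rescaled on their own, 598 rose and 773 fell of 12906, and 1318 of the 1394 main calls in that set passed again, all in the same direction. On that scale 21 of 31 maturation genes, 22 of 27 cytotoxic genes and 11 of 20 class I genes fell, and 8 of 34 proliferation genes rose and 1 fell, close to the main counts given below. That rescaling was chosen after the data were seen. Pairs of natural libraries correlated at 0.951 to 0.963 across genes, pairs of induced ones at 0.968 to 0.974, and pairs across the groups at 0.916 to 0.929. A log2 fold change below is induced minus natural on the log2(FPKM + 1) scale, which understates changes of low genes.

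The label CD8 SP held for the coreceptors in both groups. Cd8a (ENSMUSG00000053977), the alpha chain of CD8, stood at 364, 379 and 318 FPKM in the natural libraries and at 334, 326, 288 and 291 in the induced ones. These values overlapped, and the fold change of -0.19 (SE 0.33) did not pass (adjusted p 0.92). Cd8b1, the beta chain, stood at 675, 752 and 564 FPKM in natural and at 417, 358, 365 and 347 in induced libraries. Its groups did not overlap, yet the fold change of -0.83 (SE 0.39) did not pass (adjusted p 0.20), although it did in a fit of these 2 groups by themselves (0.00119). Cd4 was at 1.82, 0.568 and 2.01 FPKM in natural and at 3.08, 7.52, 3.76 and 4.51 in induced cells, a rise of 1.21 (SE 0.22, adjusted p 4.79e-05). Both levels were far under the mean of 63.4 FPKM in natural CD4 SP cells and 82.9 in natural DP cells. Zbtb7b, the factor of the CD4 lineage, was listed at 0 in all 4 induced libraries and at 0, 0.898 and 0.297 in the natural ones.

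Rag1 and Ptcra, genes of earlier stages, were far higher in both CD8 SP groups than in natural CD4 SP cells. Rag1, a recombinase subunit, was at 38.9, 34.1 and 27.6 FPKM in natural and 31.6, 33.6, 50.4 and 44.7 in induced CD8 SP cells. Natural DN4 cells averaged 28.0 FPKM, natural CD4 SP cells 4.89 and natural DP cells 306 for Rag1. Ptcra, the pre-T receptor alpha chain, averaged 44.3 ± 15 FPKM (SD, n = 3) in natural and 40.3 ± 11 (SD, n = 4) in induced CD8 SP cells, against 51.2 in natural DN4 and 1.93 in natural CD4 SP cells. Neither Rag1 (0.24, SE 0.29, adjusted p 0.80) nor Ptcra (-0.11, SE 0.47, adjusted p 1.0) passed between induced and natural CD8 SP cells. Dntt, which adds bases at receptor joints, was at 499, 504 and 463 FPKM in natural and at 1119, 1015, 1038 and 1135 in induced libraries, a rise of 1.14 (SE 0.15, adjusted p 2.02e-08). Of 20 genes of the DP stage, 3 rose and 3 fell with a median of 0.27, and Ldhb, a lactate dehydrogenase subunit, fell by 1.46 (SE 0.32, adjusted p 0.000853). Of 16 pre-T receptor and Notch genes tested, Dtx1, a Notch target, alone passed, a share near the 5.01% of all genes called lower: it was at 7.30, 18.4 and 18.2 FPKM in natural and at 1.13, 2.56, 3.53 and 3.14 in induced cells.

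Some genes that mark CD8 thymocytes beside the coreceptor fell. Runx3, the factor that silences Cd4 in the CD8 lineage, was at 15.5, 14.7 and 19.1 FPKM in natural and at 6.96, 5.01, 5.60 and 6.89 in induced libraries, a fold change of -1.29 (SE 0.26, adjusted p 0.000263). Itgae, the CD103 integrin chain of CD8 thymocytes, was at 24.2, 12.4 and 18.4 FPKM against 0.331, 2.03, 1.94 and 2.27, a change of -2.91 (SE 0.39, adjusted p 5.92e-08). St6gal1, a sialyltransferase, changed by -3.44 (SE 0.40, adjusted p 9.65e-10). The groups of all 3 genes did not overlap. Over the 17 genes of the CD8 lineage identity list, 2 rose and 5 fell, with a median of -0.28. The list also holds genes of the CD4 lineage, such as Cd4 and Zbtb7b, and Cd4 was 1 of the 2 that rose. The count that fell was 3 without the filter on low values, and also without natural replicate 1, natural replicate 2 or induced replicate 2.

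The receptor's alpha constant gene fell while the CD3 chains and the beta constant gene did not pass. Trac was at 173, 220 and 175 FPKM in natural and at 78.5, 8.89, 61.9 and 55.3 in induced libraries, with no overlap and with induced replicate 2 far under the other induced libraries. Its fold change was -2.21 (SE 0.46, adjusted p 0.000373), and the call was lost with a pseudocount of 0.1 (adjusted p 0.0814) and with the 2 groups fitted alone (0.093). Natural CD8 SP cells themselves, with a mean of 189 FPKM, lay under natural CD4 SP cells with 1194 and natural DP cells with 671 for Trac. Cd3g averaged 589 ± 14.7 FPKM (SD, n = 3) in natural and 510 ± 66.5 (SD, n = 4) in induced cells, a change of -0.22 (SE 0.15, adjusted p 0.46). Trbc2 changed by 0.09 (SE 0.30, adjusted p 1.0). Among 30 genes of the receptor complex and its first signaling steps, 1 rose and 9 fell, with a median of -0.20. Those that fell included Ptpn22, a phosphatase that restrains receptor signals, at -1.58 (SE 0.24, adjusted p 1.46e-06), the kinase Fyn at -1.24 (SE 0.21, adjusted p 8.35e-06) and Ptprc, the CD45 phosphatase, at -1.25 (SE 0.16, adjusted p 2.44e-08). Lck, the other Src kinase of T cells, changed by 0.36 (SE 0.19, adjusted p 0.29). The count of 9 was 3 with a pseudocount of 0.1 and 5 without natural replicate 2.

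Variable segments of the 2 receptor chains ran differently. The summed FPKM of the beta segments was 1415 to 1621 in natural and 3759 to 5128 in induced libraries, with 16 to 18 and 17 to 18 of 20 segments at 1 FPKM or more, so neither group rested on a few segments. Natural DN1 libraries summed to 819 to 939 FPKM, mature T to 2139 to 2553 and natural CD4 SP to 2733 to 3411. Natural DN4 libraries summed to 3017 to 3837 and natural DP to 5218 to 6216. The natural CD8 SP sums were thus low beside all of these but DN1, and the part of the library-wide differences was not tested. The most abundant beta segment held 15.8% to 18.4% of the sum in natural and 11.4% to 16.2% in induced libraries. Of the 20 beta segments, 9 rose and none fell, with a median of 1.61. That count was 2 with a pseudocount of 0.1, 5 with quantile normalization or without induced replicate 4, 3 without natural replicate 2 and 16 with the 2 groups fitted alone. Alpha segments summed to 26.5 to 38.1 FPKM in natural and 19.0 to 35.8 in induced libraries, which overlapped. Natural CD4 SP libraries summed to 142 to 293 FPKM. The largest alpha segment differed despite this overlap. It was Trav15-2-dv6-2 in induced replicates 2, 3 and 4, at 65.0%, 38.8% and 62.0% of the sum, and Trav8n-2 in induced replicate 1. Trav15-2-dv6-2 was also the largest in the natural DN4 libraries, at 36.1%, 18.5% and 52.4%. In natural CD8 SP libraries the largest was Trav14-1 or Trav21-dv12, at 17.6% to 40.7%. The difference in the largest alpha segment was not tested. The single gamma segment of the table summed to 12.5 to 19.3 FPKM in natural and 77.2 to 120 in induced CD8 SP libraries, and to 178 to 247 in natural DN4 libraries. Kappa light chain segments of the B lineage summed to 2593 to 3404 FPKM in pro/pre-B libraries, 3.68 to 6.62 in natural CD8 SP and 0 in all 4 induced CD8 SP libraries. Segments of a family share sequence, so reads could be split among them.

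Genes of SP maturation and exit from the thymus were lower in induced cells: 20 of 31 fell and 1 rose, against 5.01% and 5.63% of all genes, with a median of -1.78. Ccr7 (ENSMUSG00000037944), the chemokine receptor that draws maturing cells into the medulla, was at 92.5, 102 and 160 FPKM in natural and at 1.95, 7.62, 2.98 and 1.53 in induced libraries. Its fold change was -4.85 (SE 0.45, adjusted p 4.12e-13). S1pr1, the receptor for the exit signal, was at 26.3, 26.0 and 38.7 FPKM against 0.464, 1.90, 1.74 and 0.273, a change of -3.97 (SE 0.40, adjusted p 9.18e-12). Klf2, its activator, was at 51, 62.5 and 68.1 FPKM against 11.7, 18.5, 8.42 and 11.2, a change of -2.23 (SE 0.42, adjusted p 8.1e-05). In none of these 3 genes did the groups overlap. Ms4a4b, a membrane protein of mature T cells, fell from 228, 169 and 134 FPKM to 8.17, 7.38, 7.87 and 7.60 (adjusted p 1.41e-12). Ly6c2, a surface marker of late CD8 cells, went from 252, 359 and 348 FPKM to 2.42, 6.46, 1.75 and 4.09 (-6.19, SE 0.65, adjusted p 3.87e-11). Its close relative Ly6c1 went the other way, at 7.54, 8.67 and 12.1 FPKM in natural and 34.8, 22.1, 39.7 and 30.7 in induced cells. The call for Ly6c1 (1.65, SE 0.53, adjusted p 0.0319) was lost without any 1 of natural replicates 1 and 2 and induced replicates 1, 3 and 4 (adjusted p 0.0568 to 0.123). The 2 genes are near-identical, so reads could be assigned to either. In bulk RNA, fewer mature cells in a library and less of each RNA per cell cannot be told apart.

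Both groups were low in these genes beside more mature cells. The mean log2(FPKM + 1) over the maturation list was 5.41 to 5.51 in natural and 3.52 to 3.69 in induced CD8 SP libraries, 6.78 to 7.06 in natural CD4 SP, 3.20 to 3.72 in natural DP and 3.94 to 4.07 in natural DN4 libraries. Induced CD8 SP libraries thus lay among the DP libraries on this scale and the natural ones between DN4 and CD4 SP. Natural CD8 SP cells averaged 118 ± 36.3 FPKM (SD, n = 3) of Ccr7, against 591 in natural CD4 SP cells and 288 in the mature T cell group.

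**Figure D2:**
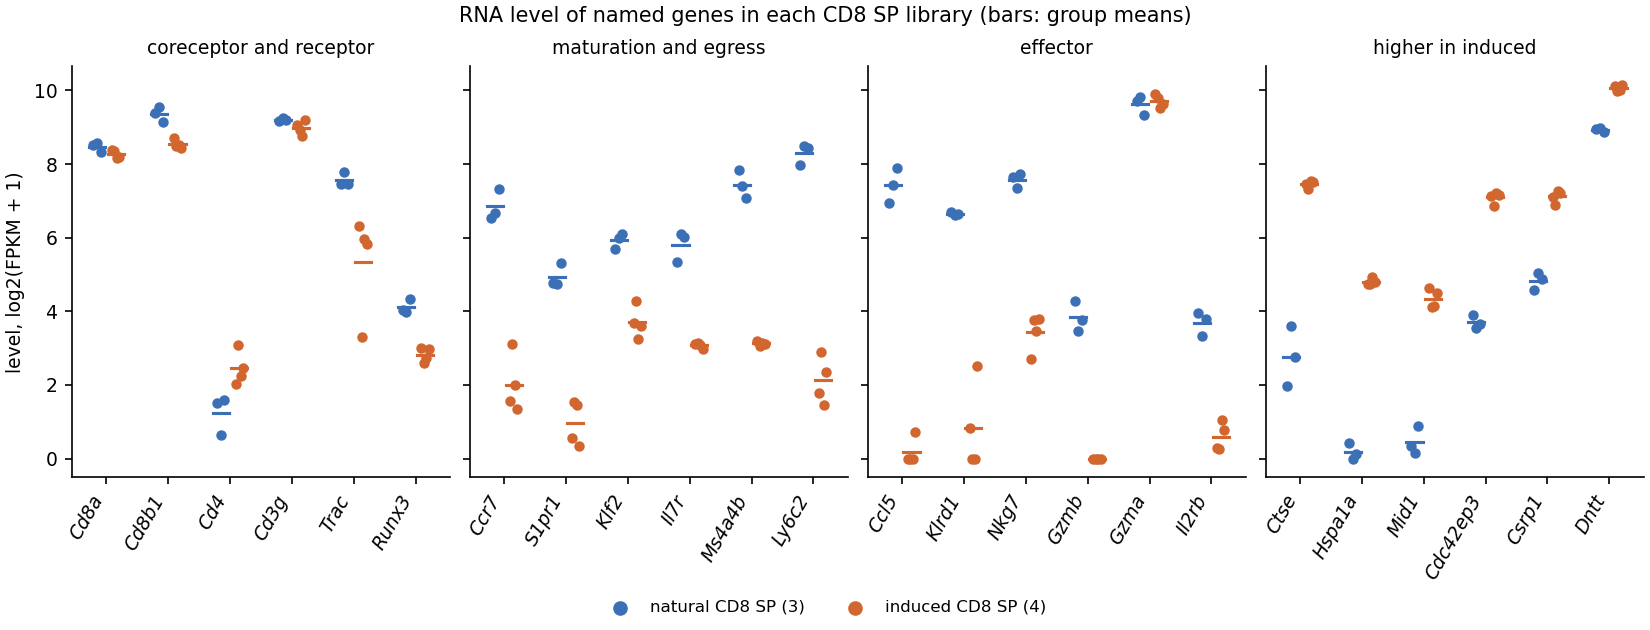
FPKM on a log2(FPKM + 1) axis of genes described in the text, each point 1 library of natural (3, blue) or induced (4, orange) CD8 SP cells, with bars at the group means. Cd8a overlaps between the groups, while Ccr7, S1pr1 and Ccl5 lie lower and Ctse, Hspa1a and Cdc42ep3 higher in every induced library.

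Some cytokine receptor and adhesion genes and most Gimap genes fell as well. Il7r, the interleukin-7 receptor chain, was at 39.2, 67.2 and 63.2 FPKM in natural and at 7.68, 7.77, 7.41 and 6.92 in induced libraries, a change of -2.73 (SE 0.24, adjusted p 8.53e-14). Among 31 cytokine receptor and JAK-STAT genes, 11 fell and none rose, with a median of -0.32, and 7 fell without natural replicate 2. Il2rb, the receptor chain shared by interleukins 2 and 15, changed by -3.10 (SE 0.28, adjusted p 2.05e-13), and Cish, a feedback inhibitor of cytokine signals, by -2.18 (SE 0.34, adjusted p 1.69e-06). Among 25 homing receptors and integrins, 9 fell and 1 rose, with a median of -0.39. Cxcr6 (adjusted p 7.9e-10), the integrin chain Itgb7 (2.36e-07) and the adhesion receptor Cd44 (1.43e-07) fell by 4.01, 2.88 and 2.43. The 1 that rose was Cxcr4, the receptor that holds thymocytes in the cortex, at 5.2, 4.55 and 4.44 FPKM in natural and 20.8, 27.7, 17.5 and 15.5 in induced cells (1.87, SE 0.46, adjusted p 0.00299). Of the 8 Gimap genes, small GTPases needed for lymphocyte survival, 6 fell, with a median of -2.20. Gimap4 went from 80.8, 73.8 and 63.2 FPKM to 2.81, 1.55, 0.955 and 3.57 (-4.59, SE 0.55, adjusted p 1.76e-09), and Gimap6, the most abundant, from 115, 116 and 117 FPKM to 49.4, 50.8, 45.6 and 40.4. Of 21 genes of survival and death, 2 rose and 4 fell. Bcl2, which protects mature T cells, was at 11.8, 15.5 and 12.9 FPKM against 2.23, 2.85, 1.88 and 4.40 (-1.94, SE 0.26, adjusted p 2.72e-08). Bcl2l1, which protects DP cells, was at 13.5, 5.96 and 14.1 FPKM against 28.7, 33.4, 28.5 and 25.6 (1.38, SE 0.36, adjusted p 0.00555), a call lost without natural replicate 2 (adjusted p 0.12).

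Of 32 transcription factors of the T lineage, 11 fell and none rose, with a median of -0.30. Tcf7, a factor of T cell identity with a mean of 1214 FPKM in natural and 1403 in induced cells, changed by 0.21 (SE 0.16, adjusted p 0.53). Gata3 changed by -0.28 (SE 0.20, adjusted p 0.50) and Bcl11b by -0.45 (SE 0.19, adjusted p 0.13), and none of these 3 passed, although Bcl11b did with quantile normalization (0.0138) and without induced replicate 1 (0.0469). Id2, which restrains E proteins in effector and innate-like cells, was at 101, 87.2 and 117 FPKM against 6.74, 7.36, 9.02 and 7.19 (-3.58, SE 0.37, adjusted p 1.23e-11). Foxo1, which drives Klf2 and Il7r, was at 37.2, 31.6 and 37.0 FPKM against 8.66, 8.55, 9.32 and 12 (-1.78, SE 0.18, adjusted p 1.72e-11). Bach2, which holds T cells in a naive state, changed by -2.32 (SE 0.36, adjusted p 1.69e-06), and Lef1, the partner of Tcf7, by -1.50 (SE 0.29, adjusted p 0.000122).

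Cytotoxic genes had the lowest median of the lists: 21 of 27 fell and none rose, with a median of -2.51. Ccl5 (ENSMUSG00000035042), a chemokine of effector cells, was at 123, 172 and 238 FPKM in natural libraries, at 0 in 3 induced libraries and at 0.647 in the fourth (-7.25, SE 0.48, adjusted p 9.03e-19). Klrd1, the CD94 receptor, was at 103, 96.7 and 99.8 FPKM against 0.771, 0, 0 and 4.73, and Nkg7, a protein of the lytic granule, at 200, 162 and 210 FPKM against 5.54, 12.6, 10.1 and 12.9. Gzmb, the granule protease granzyme B, was at 18.3, 10.1 and 12.6 FPKM in natural and listed at 0 in all 4 induced libraries (adjusted p 1.29e-10). Eomes, a factor of memory and cytotoxic cells, was at 3.68, 1.69 and 4.24 FPKM and likewise listed at 0 in every induced library. Gzma, granzyme A, did not share this: it was at 846, 909 and 645 FPKM in natural and at 956, 895, 742 and 793 in induced libraries, which overlapped (0.09, SE 0.41, adjusted p 1.0). Natural DN4 cells had a mean of 1968 FPKM of Gzma and natural CD4 SP cells 7.15. The cathepsin Ctsw, abundant in killer cells, changed by -2.86 (SE 0.43, adjusted p 5.86e-07), and S100a4, a calcium-binding protein of effector cells, went from 110, 29.6 and 91.1 FPKM to 0, 0, 0 and 0.730. Natural DN1 libraries were higher still, with means of 2245 FPKM for Ccl5 and 863 for Klrd1.

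Of 31 genes induced by receptor signals, 13 fell and none rose, with a median of -0.84. Cd69, an early activation marker that holds cells in the thymus, was at 69.0, 104 and 129 FPKM in natural and at 16.3, 14.8, 27.6 and 43.1 in induced libraries (-2.02, SE 0.34, adjusted p 9.38e-06). The AP-1 member Junb changed by -1.95 (SE 0.33, adjusted p 1.19e-05) and Nfkbia, the NF-kB inhibitor, by -1.57 (SE 0.23, adjusted p 3.43e-07). Egr1, a first-wave factor, did not pass (-1.27, SE 0.47, adjusted p 0.0745), although it did with library weights (0.00863), with the 2 groups fitted alone (0.0206) and with only thymic groups in the fit (0.0333). Of 9 inhibitory receptors, 4 fell and none rose, among them Btla (-3.26, SE 0.33, adjusted p 8.62e-12) and Cd160 (-3.66, SE 0.55, adjusted p 8.09e-07). The count of 4 was 2 without any 1 of natural replicates 1 and 3 and induced replicates 2 and 3.

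Of 20 genes of the MHC class I pathway, which presents peptides to CD8 cells and rises as thymocytes mature, 11 fell and none rose, with a median of -0.49. H2-K1, a classical class I heavy chain, was at 736, 747 and 973 FPKM in natural and at 237, 315, 265 and 201 in induced libraries (-1.69, SE 0.15, adjusted p 1.98e-13). H2-D1 was at 537, 576 and 723 FPKM against 219, 211, 199 and 157 (-1.63, SE 0.13, adjusted p 2.47e-16). B2m, the shared light chain, changed by -0.98 (SE 0.10, adjusted p 1.72e-11), and Nlrc5, the activator of class I genes, by -2.47 (SE 0.33, adjusted p 4.98e-08). Class I heavy chain genes are close copies whose reads can be shared. The immunoproteasome subunit Psmb8 was at 720, 811 and 851 FPKM against 771, 802, 760 and 672 and did not pass (-0.08, SE 0.11, adjusted p 0.84).

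Of 28 interferon response genes, 9 fell and none rose, against 5.01% and 5.63% of all genes, with a median of -0.75. Samhd1, a nucleotide phosphatase that limits viruses, was at 24.9, 31.5 and 32.8 FPKM in natural and at 0.227, 0.758, 2.60 and 0.741 in induced libraries (-3.99, SE 0.33, adjusted p 1.03e-14). Ifit1, an RNA-binding protein that interferon induces, was at 8.69, 5.24 and 6.57 FPKM against 1.06, 0.137, 0.744 and 1.18 (-2.16, SE 0.52, adjusted p 0.00236). Its relative Ifit3 was at 11.2, 0.736 and 6.98 FPKM against 0.225, 0.769, 0 and 0.126, so natural replicate 2 overlapped the induced group (-2.15, SE 0.46, adjusted p 0.000513). The 250 bases before the start of each of these genes, from RefSeq on GRCm38.p6, are shown because both hold 2 matches to the core of the interferon-stimulated response element (GAAA, any 2 bases, GAAA), searched on both strands. The capitals mark the matches, which here lie on the opposite strand, and 2.98% of 32851 promoters of this length hold at least 1. Ifit1 lies at chr19:34640639-34640888 on the plus strand and Ifit3 at chr19:34583279-34583528 on the plus strand, and a match is a description only.
Ifit1: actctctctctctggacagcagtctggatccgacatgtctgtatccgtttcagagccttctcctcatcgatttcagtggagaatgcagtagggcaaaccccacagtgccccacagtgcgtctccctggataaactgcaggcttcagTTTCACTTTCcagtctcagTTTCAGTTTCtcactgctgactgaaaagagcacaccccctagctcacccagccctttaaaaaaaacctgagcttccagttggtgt
Ifit3: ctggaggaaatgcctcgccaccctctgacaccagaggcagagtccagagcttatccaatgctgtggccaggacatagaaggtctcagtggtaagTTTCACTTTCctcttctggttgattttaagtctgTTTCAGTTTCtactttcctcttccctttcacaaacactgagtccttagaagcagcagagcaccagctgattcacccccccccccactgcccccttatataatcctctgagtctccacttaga

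**Figure D3:**
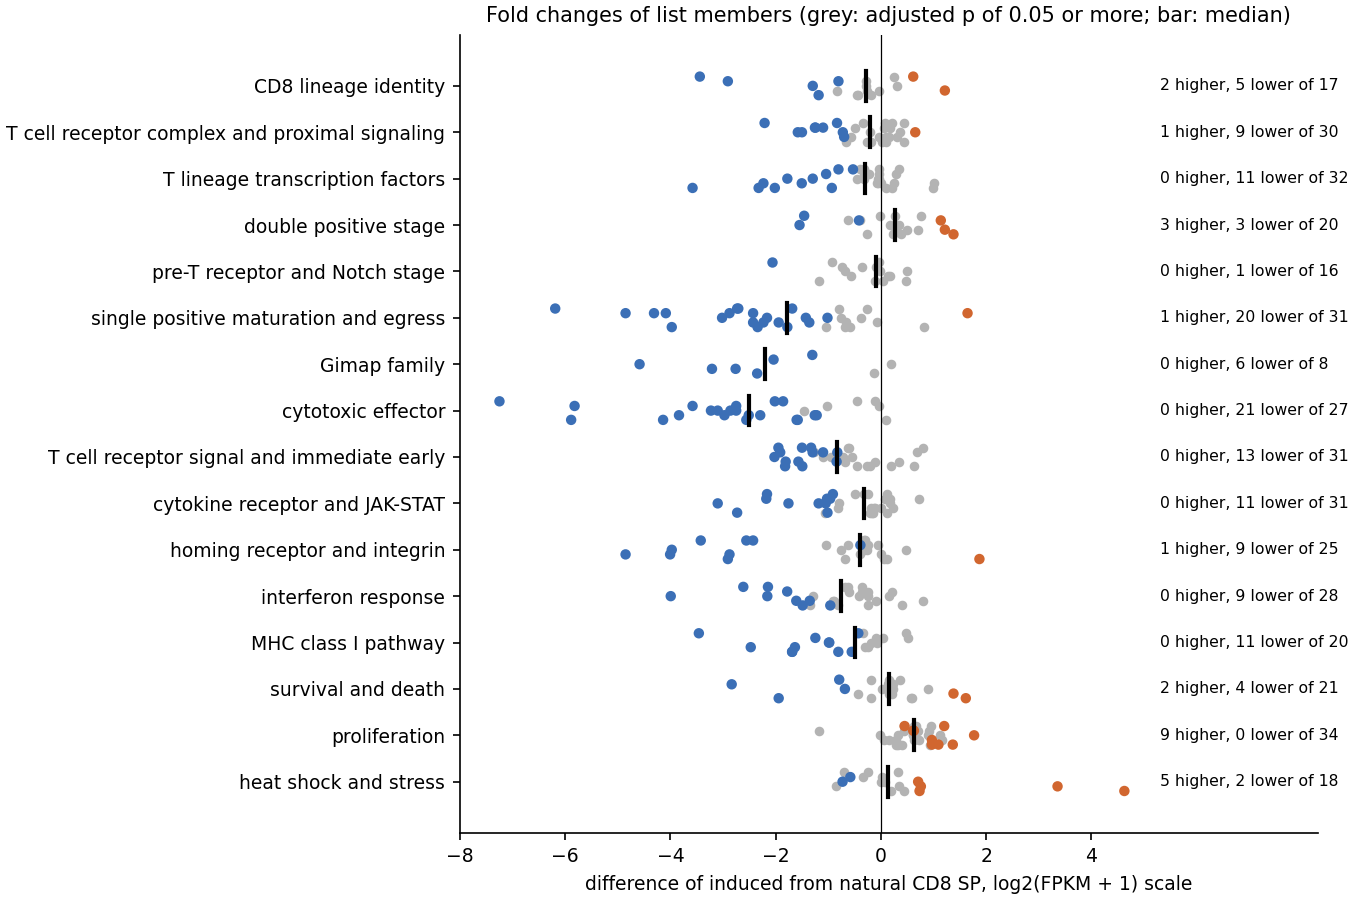
Log2 fold changes, induced minus natural CD8 SP, of the members of gene lists that were tested, each point 1 gene, coloured where the gene passed the adjusted p of 0.05 and grey otherwise, with a bar at the median. The medians of cytotoxic genes (-2.51), the Gimap family (-2.20) and maturation genes (-1.78) lie lowest, and that of proliferation genes (0.63) above 0.

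The heat shock list included large gains. Hspa1a (ENSMUSG00000091971), an inducible HSP70 chaperone, was at 0.328, 0 and 0.0929 FPKM in natural and at 26.0, 25.6, 29.3 and 27.0 in induced libraries (4.62, SE 0.35, adjusted p 2.67e-16). Hspa1b, its neighbour, was listed at 0 in all 3 natural libraries and stood at 7.17, 13.9, 6.86 and 10.5 FPKM in the induced ones (adjusted p 2.1e-13). The 2 genes are near-identical copies, so the split of reads between them is uncertain. Of 18 heat shock and stress genes, 5 rose and 2 fell, with a median of 0.13. The other risers moved little: Hsp90ab1 by 0.73 (SE 0.11, adjusted p 4.05e-07), the HSP70 partner Dnajb1 by 0.71 (SE 0.14, adjusted p 0.000115) and the stress factor Atf4 by 0.76 (SE 0.15, adjusted p 0.000244). Hsp90aa1, the inducible HSP90, did not pass (-0.25, SE 0.16, adjusted p 0.41). The upstream 250 bases of both Hspa1 genes, from RefSeq on GRCm38.p6, are shown because they differ at 3 of 250 bases and each holds 1 match to GAANNTTC, the core of the heat shock element. The capitals mark that match to a pattern that reads the same on both strands, and 6.69% of 32851 promoters of this length hold a match. Hspa1a lies at chr17:34972157-34972406 and Hspa1b at chr17:34959239-34959488, both on the minus strand.
Hspa1a: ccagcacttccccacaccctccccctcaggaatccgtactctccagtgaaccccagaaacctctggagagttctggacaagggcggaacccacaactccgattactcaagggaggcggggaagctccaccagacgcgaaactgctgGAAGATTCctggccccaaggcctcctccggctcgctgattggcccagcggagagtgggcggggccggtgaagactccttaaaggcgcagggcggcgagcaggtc
Hspa1b: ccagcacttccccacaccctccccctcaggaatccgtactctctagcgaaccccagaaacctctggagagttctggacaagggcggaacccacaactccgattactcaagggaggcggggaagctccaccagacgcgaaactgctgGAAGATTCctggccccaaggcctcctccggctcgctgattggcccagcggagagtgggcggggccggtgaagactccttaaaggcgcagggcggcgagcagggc

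Several of the highest genes were high in the induced thymic cells of every stage from DN1 to SP. Ctse, the protease cathepsin E, was at 2.90, 11.2 and 5.72 FPKM in natural and at 175, 159, 186 and 183 in induced CD8 SP libraries (4.69, SE 0.57, adjusted p 2.82e-09). Over the stages from DN1 to SP cells, the 24 induced libraries lay at 159 to 388 FPKM of Ctse and the 21 natural ones at 0.256 to 26.8. Cdc42ep3, an effector of the GTPase Cdc42, was at 14, 10.8 and 11.6 FPKM against 141, 116, 148 and 142 in CD8 SP cells (3.39, SE 0.24, adjusted p 1.67e-17), and at 4.59 to 46.6 against 94.0 to 507 FPKM over these stages. Csrp1, a LIM domain protein, changed by 2.30 (SE 0.20, adjusted p 2.23e-14) and was at 10.5 to 50.02 against 73.3 to 176 FPKM over the stages. Hspa1a, Hspa1b and Xist also kept the 24 induced apart from the 21 natural libraries of these stages. Xist was at 0 to 1.78 FPKM in these natural libraries and at 4.21 to 16.3 in the induced ones. Source and sex therefore cannot be told apart over these stages either, and the part of sex in these genes was not tested. Mid1, an X-linked ubiquitin ligase, was at 0.255, 0.106 and 0.848 FPKM against 23.7, 16.4, 16.6 and 21.6 in CD8 SP cells (3.89, SE 0.59, adjusted p 1.02e-06). For Mid1, Cnbd2, Cpne8 and Cxcr4 the group means separated over the stages but single libraries overlapped. Pro/pre-B cells, from which the induced cells came, had means of 89.4 FPKM for Cdc42ep3, 2.39 for Ctse and 0.153 for Hspa1a.

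Other genes among the 15 highest were as follows. Rps27rt, a copy of the ribosomal protein gene Rps27 made by retroposition, had the highest fold change of the genes named by rule: 7.53, 5.46 and 8.81 FPKM in natural and 331, 589, 314 and 297 in induced CD8 SP libraries (5.50, SE 0.25, adjusted p 9e-27). Its mean was 15.6 FPKM in natural DN1, 483 in natural CD4 SP and 349 in natural DP cells, so it ran with the pseudogene share of the libraries, and reads of its parent gene may be counted with it. Sap18b was at 0.481, 0 and 0 FPKM against 11.8, 9.06, 5.76 and 7.73, with 0 in natural DN1 and a mean of 10.1 in natural DN4 cells. Gemin4, a part of the SMN complex, was at most at 0.00139 FPKM in the natural CD8 SP libraries and at 14.4, 16.1, 13.5 and 9.67 in the induced ones, against a mean of 15.8 in natural DN4 cells. Slc5a9, a sugar transporter, was at 2.95, 0 and 2.71 FPKM against 19.1, 23.8, 35.2 and 34.8 and averaged 11.9 in natural DN4 and 63.0 in induced CD4 SP cells. Fbln2, a matrix protein, was at 3.76, 15.7 and 12.7 FPKM against 69.4, 56.0, 59.8 and 49.1 (2.52, SE 0.34, adjusted p 3.97e-08). Tmem267, Sqor and Cnbd2 changed by 2.89, 2.86 and 2.55, and Rad51b, a recombination protein, by 2.50 (SE 0.68, adjusted p 0.0094). The call of Rad51b was lost without natural replicate 1 (0.109) or natural replicate 2 (0.0717).

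Of 34 proliferation genes, 9 rose and none fell, with a median of 0.63. Aurka, a mitotic kinase, was at 22.4, 15.6 and 29.6 FPKM in natural and at 90.1, 75.4, 77.1 and 66.3 in induced libraries (1.77, SE 0.38, adjusted p 0.000467). Mki67, the marker of cycling cells, was at 37.7, 26.2 and 27.3 FPKM against 77.2, 69.4, 54.5 and 61.4 (1.09, SE 0.27, adjusted p 0.00384). Bub1b, a spindle checkpoint kinase, changed by 1.37 (SE 0.35, adjusted p 0.00469). The count that rose was 5 with a pseudocount of 0.1 or quantile normalization, 16 with library weights, 15 with only thymic groups in the fit and 22 with the 2 groups fitted alone. With a pseudocount of 0.1 the calls of Mki67 (adjusted p 0.0984) and Bub1b (0.1) were lost. The mean log2(FPKM + 1) over the list was 6.75 to 6.94 in natural and 7.45 to 7.56 in induced CD8 SP libraries, against 6.92 to 7.07 in natural DN4 and 4.60 to 4.90 in natural CD4 SP libraries. Of 23 genes of MYC and ribosome biogenesis 3 rose, among them the nucleolar protein Ncl (0.80, SE 0.18, adjusted p 0.00102), and of 17 glycolysis genes 3 rose and 1 fell, with Pkm, pyruvate kinase, at 123, 154 and 127 FPKM against 226, 255, 227 and 227.

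Some markers of other cells were lower in the induced group as well. Cd74, which guides MHC class II chains to their compartment, was at 55.8, 13.3 and 90.6 FPKM in natural and at 0, 2.53, 0 and 3.49 in induced libraries, and H2-Aa, a class II chain, changed by -4.57 (SE 0.57, adjusted p 8.34e-09). Igkc, the kappa constant gene of B cells, was at 77.2, 55.2 and 66.9 FPKM against 0, 4.71, 0 and 0. Of 22 B lineage markers, 10 fell and none rose, and their summed level was 676 to 1021 FPKM in natural and 664 to 776 in induced libraries, with Ighm at 434 to 504 and 628 to 707. The defining genes Pax5 and Ebf1 were at 0 in all 4 induced libraries and at most at 0.0340 and 0.344 FPKM in the natural ones. Of 14 natural killer markers, 7 fell and none rose, with sums of 904 to 1156 and 752 to 962 FPKM, of which Gzma was the largest part. Ncr1 was at 3.55, 0 and 0 FPKM in natural and at 0, 0, 0 and 2.48 in induced libraries, and Klrb1c at 4.34, 4.05 and 2.25 against 0 in all 4. Of 14 dendritic markers, 6 fell and none rose, with sums of 165 to 341 and 67.2 to 82.5 FPKM. Of 21 myeloid markers, Lyz2 alone passed, a share near the background of 5.01%, at 19.0, 0.199 and 1.92 FPKM against 0 in all 4, and Elane and Ctsg were at 0 in every library. Of 12 CD4 helper and regulatory markers 1 rose and 3 fell, with sums of 142 to 153 and 59.0 to 68.6 FPKM. No erythroid (13) or stromal (7) marker that was tested passed. The part of these cells in the cytotoxic, class I and maturation results was not tested.

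The lowest genes by rule that belong to none of the lists above included Cd53, a tetraspanin of leukocytes, at 76.4, 70.7 and 52.6 FPKM against 1.06, 3.69, 2.50 and 1.26 (-4.50, SE 0.28, adjusted p 6.09e-20). Cd7, a surface protein of T and natural killer cells, was at 53.6, 27.4 and 33.0 FPKM against 0.455, 1.99, 0.265 and 0. Klk8, a serine protease, was at 42.5, 66.8 and 57.1 FPKM against 2.19, 3.20, 0.366 and 2.11, and Gramd3 and the galectin Lgals3 changed by -4.09 (SE 0.35) and -4.63 (SE 0.85). The groups of these 5 genes did not overlap.

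**Figure D4:**
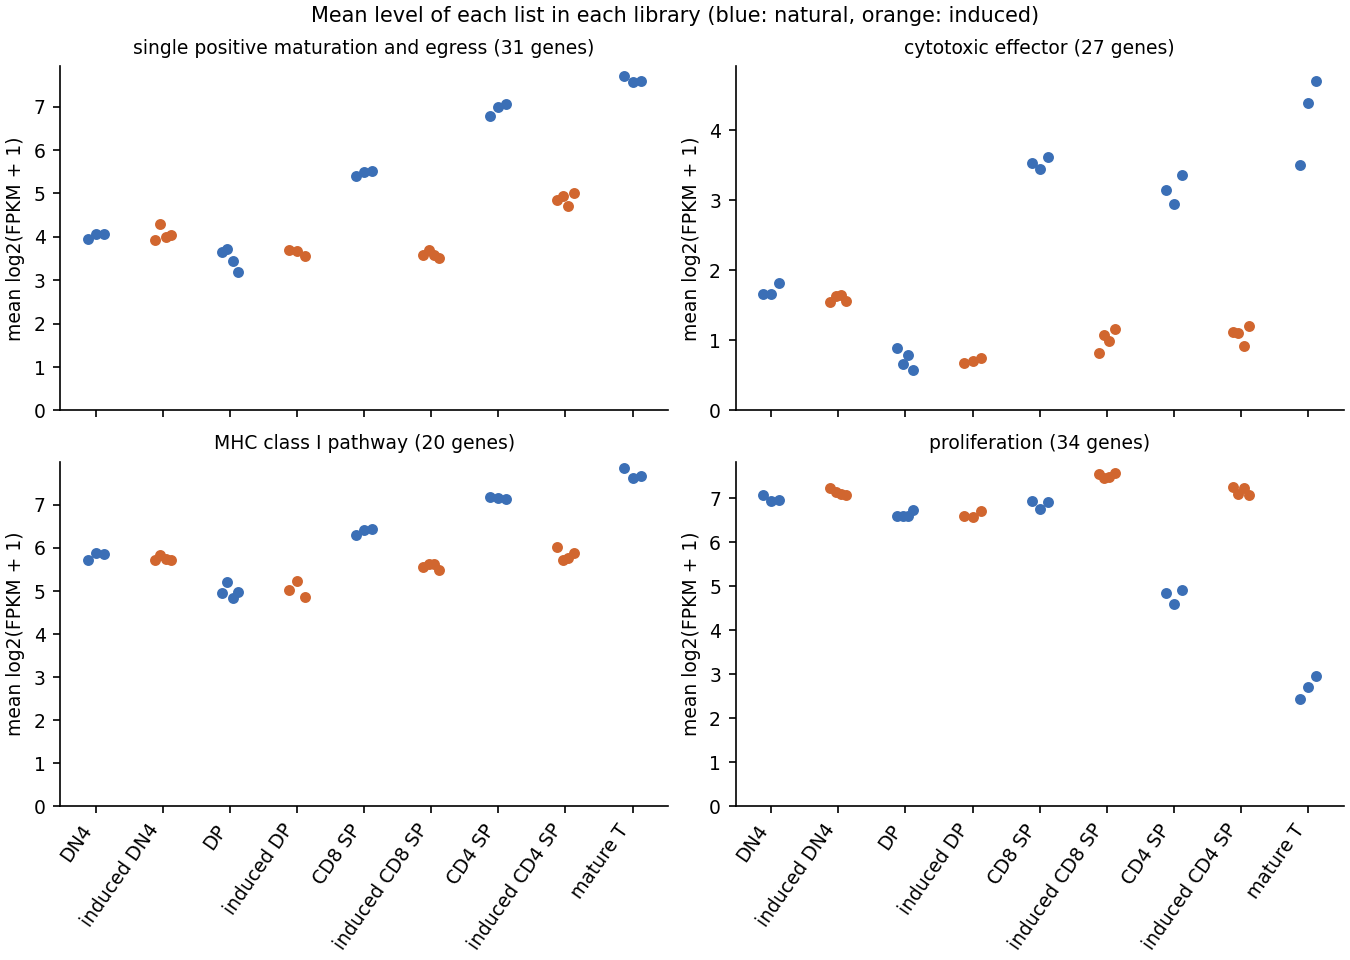
Mean log2(FPKM + 1) over the genes of a list in each library, by natural (blue) and induced (orange) group. Natural CD8 SP libraries lie between DN4 and CD4 SP libraries in maturation genes (5.41 to 5.51), and induced CD8 SP libraries lie with the DP libraries (3.52 to 3.69).

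The same contrast was then taken in CD4 SP cells (3 natural, 4 induced libraries) and in DP cells (4 natural, 3 induced), which share no library with the CD8 SP groups. Induced against natural CD4 SP cells gave 4599 calls (26.4% of genes, 14.0% higher and 12.4% lower), and DP cells 1804 (10.4%, 4.83% higher and 5.53% lower). A test of the difference between the contrasts gave 1404 genes (8.06%) for CD8 SP against CD4 SP, of which 664 (3.81%) were higher in the CD8 SP contrast and 740 (4.25%) lower. For CD8 SP against DP it gave 1278 genes (7.34%), with 713 (4.09%) higher and 565 (3.24%) lower. Across 12906 protein-coding genes the fold changes of the CD8 SP and CD4 SP contrasts correlated at r = 0.603, and across all tested genes at 0.443, as a description over genes that are not independent. Natural CD4 SP libraries had 0.814% to 1.27% of FPKM in processed pseudogenes, far above natural CD8 SP libraries, and the part of that gap in these differences was not tested.

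Most maturation genes fell in both SP contrasts. In CD4 SP cells 25 of 31 fell and 1 rose (median -2.23), and in DP cells 3 fell and 4 rose (median -0.10). The difference test passed for 3 of 31 against CD4 SP, 2 of them higher, and for 18 of 31 against DP, all lower. Ccr7 changed by -0.98 in DP cells (adjusted p 0.17). Its difference of -3.87 (SE 0.63, adjusted p 9.61e-06) was lost with a pseudocount of 0.1 (0.15). S1pr1 differed from the DP contrast by -3.66 (adjusted p 2.97e-06) and Ms4a4b by -6.37 (adjusted p 4.14e-13). Ms4a4b fell in induced CD8 SP cells and rose by 2.06 in induced DP cells. Cytotoxic genes differed from the DP contrast in 19 of 27, all lower, and from the CD4 SP contrast in 4 higher and 5 lower. Against DP, Ccl5 differed by -6.67 (adjusted p 2.44e-11), Ly6c2 by -6.09 (1.71e-06), S100a4 by -5.85 (0.000372) and Cd53 by -5.61 (2.17e-17). The class I pathway had 15 of 20 genes lower in the CD4 SP contrast and 5 in the DP contrast. H2-K1 changed by 0.10 in DP cells (difference -1.79, adjusted p 4.4e-09), and B2m changed by -2.20 in CD4 SP cells, a deeper drop than in CD8 SP cells (difference 1.22, adjusted p 1.94e-09). The difference of B2m was lost with quantile normalization (0.174).

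Immature and cycling genes separated the 2 SP contrasts. Proliferation genes rose in 33 of 34 cases in the CD4 SP contrast (median 2.22) against 9 in CD8 SP. The difference test passed for 25 of 34, all lower in the CD8 SP contrast. The mean log2(FPKM + 1) of this list was 4.60 to 4.90 in natural and 7.06 to 7.24 in induced CD4 SP libraries. In CD8 SP it was 6.75 to 6.94 in natural and 7.45 to 7.56 in induced libraries. The lower difference thus went with a higher natural CD8 SP level, not with a lower induced one. Genes of the DP stage rose in 14 of 20 cases in CD4 SP cells, and 13 were lower in the CD8 SP contrast by the difference test. Dntt differed by -4.50 (SE 0.21, adjusted p 1.25e-25), since it rose by 5.64 in CD4 SP cells. Gzma differed by -5.71 (SE 0.58, adjusted p 2.23e-11), Ptcra by -4.94 (SE 0.67, adjusted p 1.05e-07), Rag1 by -3.83 (SE 0.41, adjusted p 1.16e-10) and Mki67 by -1.88 (SE 0.39, adjusted p 0.000502). Cd8a itself rose by 3.19 in induced CD4 SP cells, to a mean of 16.7 from 1.15 FPKM, and differed by -3.38 (SE 0.46, adjusted p 1.22e-07). The lowest differences by rule were those of Nebl (-6.54, SE 0.45), Nt5dc2 (-6.52, SE 0.54), Endou (-5.46, SE 0.37), Prss57 (-5.40, SE 0.74) and Ly6d (-5.03, SE 0.75), 5 genes that rose by 5.73 to 7.49 in CD4 SP cells. Endou, for instance, was at 51.8, 58.6 and 55.5 FPKM in natural and 93.5, 96.6, 91.5 and 86.8 in induced CD8 SP cells and did not pass there (0.73, SE 0.26, adjusted p 0.0613). The highest were Rps27rt (5.99), the Sca-1 gene Ly6a (4.23), Pdlim4 (3.41), Gemin4 (2.84) and Lair1 (2.81). The last 3 were less firm: the difference of Pdlim4 was lost with a pseudocount of 0.1 (adjusted p 0.0624), that of Lair1 without natural CD4 SP replicate 2 (0.0986), and that of Gemin4 without natural CD4 SP replicate 3, natural CD8 SP replicate 2 or induced CD4 SP replicate 1 (0.0511 to 0.0656).

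**Figure D5:**
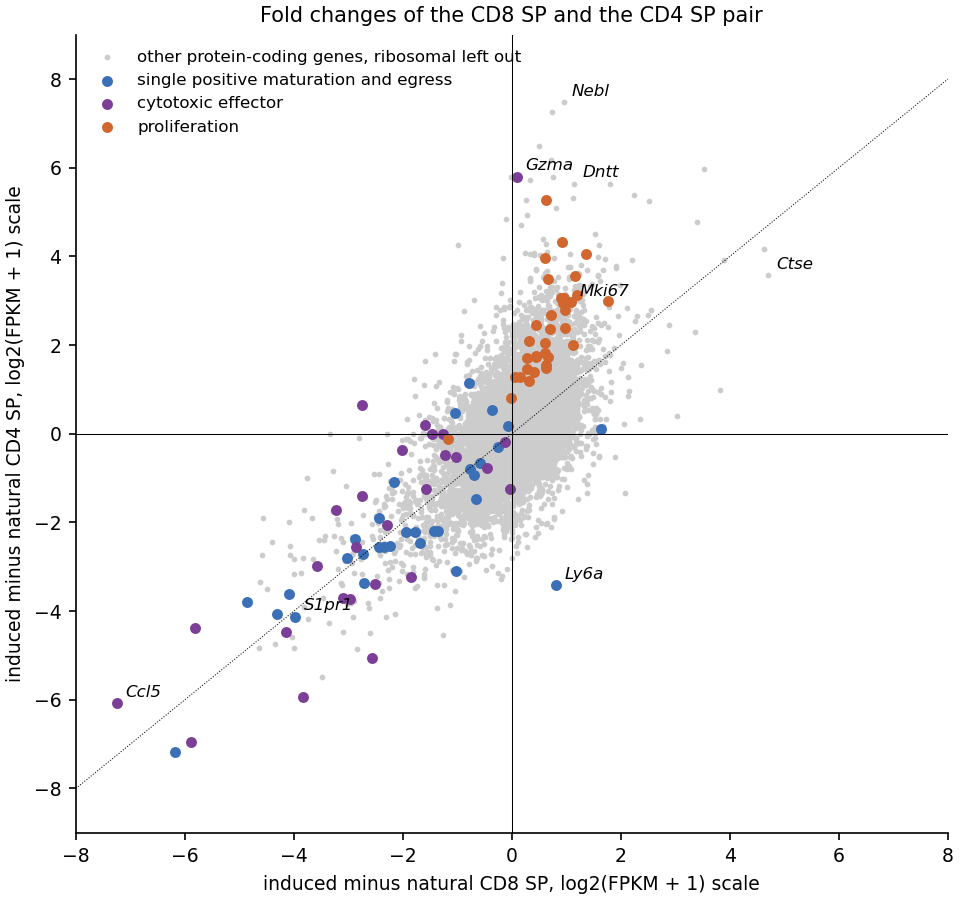
Log2 fold change of induced against natural cells in CD8 SP (x axis) and CD4 SP (y axis), each point 1 gene, with the named groups of genes coloured. Fold changes correlate at r = 0.603 over protein-coding genes, cytotoxic and maturation genes lie low on both axes, and proliferation genes lie higher on the CD4 SP axis.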

How the data were processed

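RNA of 76 libraries in 24 groups was sequenced. The authors deposited FPKM per gene, made with bcl2fastq, TopHat, Cufflinks 2.2.1 and Cuffnorm on NCBIM37, per the submitters' processing notes, and read totals were not used here. Symbols came from the GENCODE annotation of GRCm38, which named 32916 genes (86.7%), so no gene coordinates were transferred. Pro/pre-B replicates 1 and 3 were identical and counted once, leaving 75 libraries. Depth was placed from 4297 single-transcript genes of at least 1000 bases, of whose low values 81.5% to 93.8% lay within 0.2 of a whole number of fragments in the 7 CD8 SP libraries. This gives counting error only.

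Values were analysed as log2(FPKM + 1). The 17416 genes that reached 1 FPKM in 2 or more libraries were fitted with limma 3.58.1 (R 4.3.3), with 1 mean per group over all 75 libraries, trend and robust settings and 51 residual degrees of freedom. Tests were two-sided, with Benjamini-Hochberg adjustment over these genes and a threshold of 0.05. The fit was tested on data simulated for this comparison with 16645 genes. It recovered 53% of genes changed 2-fold and 96% of those changed 4-fold, and 6 of its 155 calls (3.87%) were wrong. Changes were placed only in genes averaging more than 5 FPKM over both CD8 SP groups. These rates hold for the simulated data alone and give no recovery for genes under that level. They cannot give the share of wrong calls in the real data, where the groups also differed in library-wide measures. Python 3.11.15, numpy 2.4.6, pandas 2.3.3 and matplotlib 3.10.9 did the rest.

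The groups, the gene lists and the members described were chosen with earlier results of these data known. Genes were named by rule: Hoxb5, members of a described list, and the 15 highest and 15 lowest fold changes among called genes whose libraries did not overlap and whose higher group averaged 5 FPKM or more (5 and 5 for each difference). Receptor segments, small RNAs, pseudogenes and predicted genes were left out of that ranking, and some items are not reported here. The choice of Cpne8, Csrp1 and the library-wide genes (Gm23419, Xist, Ddx3y) came after their values were known. Alternatives were another pseudocount, no filter, 2 other scalings, library weights, a replicate block, fewer groups in the fit and leaving out each library. Rescaling on protein-coding genes and leaving natural DN1 out of the fit were added after seeing the data. Promoter sequences came from RefSeq tables of GRCm38.p6 (250 bases before the start), and motif matches were counted on both strands.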

Additional observations from a re-analysis of the deposited data

Results flagged for a closer look

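On the log2(FPKM + 1) scale, a single library stood far from the other 3 of the induced CD8 SP group in 10 of 106 genes tested for this. The gap to its nearest neighbour, as a share of the whole range, exceeded Dixon's 95% limit in these 10, and chance flags about 1 in 20. The gap shares were 1.0 for Ccl5, S100a4 and Igkc, each listed at 0 in 3 libraries, 0.953 for Pkm, 0.952 for Tmem267, 0.941 for Sqor, 0.936 for Pdlim4, 0.883 for Itgae, 0.842 for Rps27rt and 0.834 for Trac. In Trac and Rps27rt the library apart was induced replicate 2, with the lowest Trac and the highest Rps27rt.

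Effects that differed between CD8 SP and CD4 SP cells, as a test of the difference in log2 fold change, were higher in CD8 SP cells for Rps27rt (5.986), Ly6a (4.226), Pdlim4 (3.408), Gemin4 (2.838), Lair1 (2.815) and B2m (1.216). They were lower for Nebl (-6.538), Nt5dc2 (-6.519), Gzma (-5.711), Endou (-5.457), Prss57 (-5.404), Ly6d (-5.033), Ptcra (-4.944), Dntt (-4.504), Rag1 (-3.829), Cd8a (-3.377) and Mki67 (-1.876).

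Between CD8 SP and DP cells the effect was higher in CD8 SP cells for Rps27rt (5.96), Gemin4 (4.282), Rad51b (3.291), Mgat4b (3.12) and Hist1h4j (3.114). It was lower for Ccl5 (-6.671), Ms4a4b (-6.372), Ly6c2 (-6.088), S100a4 (-5.851), Cd53 (-5.611), Samhd1 (-4.264), Ccr7 (-3.87), S1pr1 (-3.658), Il7r (-2.186) and H2-K1 (-1.791). All 32 had an adjusted p under 0.05 in limma. Among them, Rps27rt ran with the pseudogene share of the libraries, which was lowest in natural CD8 SP and natural DN1. Gemin4 in natural CD8 SP lay far under the level of a single fragment on a 1 kb transcript. The part of library-wide differences in these 2 genes was not tested.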

How the results depend on the processing

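The comparison of induced with natural CD8 SP cells gave 1305 to 1580 calls when 1 library was left out and 2883 with library weights, against 1852. Its difference from the CD4 SP contrast gave 1141 to 1545 calls without 1 library, and its difference from the DP contrast 1052 to 1327. The latter fell from 1278 to 749 with only the groups of the comparison in the fit and to 778 with protein-coding genes alone, where fewer genes were tested. The other settings moved these 3 counts by less than 1.5 times. No pairing by the replicate numbers of the labels was seen: deviations of same-numbered libraries correlated at -0.0388 to 0.0134 and others at -0.0429 to 0.0384. With so few libraries this check cannot show whether the numbers mark a shared animal or day. A replicate block gave 1933, 1507 and 1364 calls.

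Of 109 genes in the text, 87 passed, and 9 of these lost the call under at least 1 of 17 settings: Trac, Ly6c1, Bcl2l1, Ldhb, Mki67, Bub1b, Rad51b, Pdlim4 and Nebl. Another 10 that did not pass gained a call under at least 1: Cd8b1, Cd3g, Lck, Nt5dc2, Endou, Ly6a, Egr1, Bcl11b, Ighm and Ly6d. Of 32 differences, 9 lost theirs. They were Pdlim4, Gemin4, Lair1 and B2m against CD4 SP, and Rad51b, Mgat4b, Hist1h4j, Ccr7 and Il7r against DP. The direction turned in 3 genes that did not pass. Trbc2 ran from -0.002664 to 0.1935 without 1 library, Gzma from -0.05856 to 0.1888 and Ptcra from -0.4181 to 0.07969, and Gzma was -0.0535 with quantile normalization. The cause of these changes was not tested. Values near those of a single fragment, including levels listed at 0, are limited by depth.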

Other observations

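Some genes outside the comparisons above also moved. Of 13 mitochondrially encoded genes, 6 fell and none rose, with a median of -0.38. The count was 2 without natural replicate 1 and 3 without natural replicate 2 or induced replicate 1. Of 84 cytosolic ribosomal protein genes, 25 rose and 6 fell, with a median of 0.19, whereas in CD4 SP cells 1 rose and 63 fell and in DP cells 1 rose and 22 fell. Over the alternatives, 18 to 29 ribosomal genes rose and 2 to 9 fell. Of 130 processed copies of ribosomal protein genes, 41 rose and 1 fell. Of all 1185 processed pseudogenes tested, 201 rose and 18 fell, beside the library-wide gap in their share of FPKM. Of 18 p53 response genes 1 fell and none rose, a share near the 5.01% of all genes called lower.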
